A study of Homo sapiens with 8 samples.

Results

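PLK4, the kinase that starts centriole duplication, and 9 genes whose products build the new centriole with it were examined in MDA-MB-231 cells exposed to carboxymethyllysine (CML). The 10 genes, PLK4, STIL, SASS6, CEP152, CEP192, CEP135, CENPJ, CEP63, CEP120 and SPICE1, were chosen by symbol from a table of 17649 genes, with the difference between control and CML libraries already known, so their own differences are given below as a description, without a test. PLK4 was higher in the 4 CML libraries than in any control library, with a mean difference of 20.8%. STIL, which binds and activates PLK4, was 11.8% higher and its groups did not overlap either. The control and CML libraries overlapped for the other 8 genes. Of genes averaging 5 CPM (read counts scaled to library size) or more, 3.36% had all CML libraries above all controls. In 1.25% all CML libraries were below.

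MDA-MB-231 is an established, estrogen receptor-negative line of human breast cancer cells, and CML is an advanced glycation end product, a lysine modified by reactive sugars. The study asked whether CML induces a proinflammatory signature of signaling through RAGE, the receptor for advanced glycation end products, in these cells. Cells of the 4 control libraries received PBS, and cells of the 4 CML libraries (titled NCML) received 1 µM CML for 48 hours, all in low-glucose medium. The line is a single model, RNA was read from whole cultures by RNA-Seq, and 1 label names a NextSeq and another a HiSeq instrument. The estimated number of reads per library lay between 16161777 and 18954700.

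A centriole is a small barrel of microtubules, and a pair of centrioles with the material around them forms the centrosome, the main microtubule-organizing center of the cell. Each centriole templates a single new one per cell cycle, beginning as cells enter S phase. PLK4 is recruited to the parent centriole by the scaffold proteins CEP192 and CEP152, phosphorylates STIL, and STIL brings in SASS6, the protein of the cartwheel that sets the shape of the new centriole. Too much PLK4 yields extra centrioles and too little blocks duplication, and the kinase limits its own amount by marking itself for degradation. RNA levels, as measured here, do not give the amount of protein.

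The cell line was checked by its markers. VIM, the mesenchymal filament gene and the most abundant of 6 marker genes of this line, had a mean of 4109 CPM (read counts scaled to library size), and the 6 markers summed to between 8232 and 8832 CPM in the 8 libraries. Of 6 luminal and epithelial markers, ESR1, the estrogen receptor gene, was not in the table, PGR lay between 0 and 0.114 CPM, and KRT19 was the most abundant with a mean of 296 CPM. Of 8 markers of other cell types 4 were in the table, with CD3E, CDH5 and HBB among those that were not. The most abundant, the endothelial gene PECAM1, had a mean of 3.21 CPM.

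The libraries numbered 4 differed from the others of their group with the GC content of the gene, a dependence computed for these libraries only. Whether it ran in steps over the other libraries was not tested. In control library 4, the difference from the other control libraries fell with the GC content of the gene (Spearman's rho of -0.654 across 10737 genes, which are not independent replicates), and the same held in CML library 4 (rho of -0.609). The 10 centriole genes are AT-rich, with a median exon GC content of 40.3% against 47.2% over all genes compared. Their median level in library 4 was higher than in the other libraries of the group by 0.10 on the log2 scale in control cells and by 0.14 in CML cells. For PLK4, control library 4 lay 0.13 above the other controls, while the difference of CML library 4 from the other CML libraries was -0.0059. The part of GC content in these differences was not tested, and values without both libraries are given for several of the results below.

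The gene for PLK4 (ENSG00000142731.11) lies on the plus strand of chromosome 4, at chr4:127880893-127899224 in the RefSeq annotation of GRCh38. PLK4 measured 13.6, 14.7, 14.3 and 15.7 CPM in control libraries 1 to 4. In CML libraries 1 to 4 it measured 18.2, 17.3, 17.4 and 17.6 CPM. The lowest CML library therefore stood above the highest control library, which was number 4, and the controls were more spread out than the CML libraries. The means were 14.6 ± 0.865 CPM (SD, n = 4) and 17.6 ± 0.392 CPM (SD, n = 4), a log2 difference of 0.26 (SE 0.045) on the log2(CPM + 1) scale used throughout. Without both libraries numbered 4 the log2 difference was 0.29, and without control library 1, the lowest control, it was 0.23. These levels rest on between 228 and 324 estimated reads per library. The spread within the groups (4.48% of the mean) was below the 6.04% that counting error alone would give. The SE was larger with a floor of 1 CPM on the mean (0.068) and with the dependence on GC content and length removed (0.062).

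The bases before the PLK4 gene start are shown because PLK4 had the largest difference of the 10 genes and because many cell cycle genes carry 3 kinds of short element near their start. These are the CHR (searched as TTTGAA or TTCGAA), the CCAAT box (CCAAT) and the E2F site (TTTCCCGC, TTTGGCGC, TTTCGCGC or TTTGCCGC). They were searched on both strands from 250 bases before to 50 bases after the start that the RefSeq promoter table lists, and 9 of the 10 genes, all but SPICE1, had an entry. For STIL and CENPJ the listed start lies inside the gene interval given here, which begins at a start farther upstream. Of 27305 promoters of this length, 16.6% held a CHR, 35.7% a CCAAT box and 3.33% an E2F site. Among promoters of genes averaging 5 CPM or more these shares were 10.9%, 37.1% and 5.63%. The 250 bases before the PLK4 start (chr4:127880643-127880892, plus strand) have a GC content of 60.8% and hold none of these letters, and the 30 bases around the only match, a CHR on the minus strand, lie inside the transcript (chr4:127880913-127880942). The match is in capitals.
PLK4, before the start: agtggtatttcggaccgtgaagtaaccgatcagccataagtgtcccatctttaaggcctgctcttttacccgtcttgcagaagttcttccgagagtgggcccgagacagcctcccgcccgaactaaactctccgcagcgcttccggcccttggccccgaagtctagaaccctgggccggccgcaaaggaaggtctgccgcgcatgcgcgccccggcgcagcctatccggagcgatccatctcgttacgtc
PLK4, CHR: ggcaagcggcgggagattTTCAAAatggga

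STIL (ENSG00000123473.15, chr1:47250139-47314896, minus strand) encodes the protein that PLK4 phosphorylates and that carries SASS6 to the assembly site. STIL measured 40.5, 42.5, 42.2 and 44.1 CPM in the control libraries and 45.7, 47.6, 46.1 and 49.6 CPM in the CML libraries, in order of their numbers. Library 4 was the highest of each group, and the lowest CML library stood above all 4 controls. The means were 42.3 ± 1.46 and 47.3 ± 1.77 CPM (SD, n = 4 each), with a log2 difference of 0.16 (SE 0.035), and of 0.15 without both libraries numbered 4. With 679 to 890 estimated reads per library, its spread within the groups (3.6%) was about what counting error gives (3.62%).

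The start region of STIL, the other gene whose groups did not overlap, held 3 CCAAT boxes and 1 E2F site. All 250 bases before its listed start lie in a STIL transcript of the GENCODE annotation, while none of those before the PLK4 start lie in a transcript, so the regions are not alike. Stretches of 30 bases are given on the minus strand of chromosome 1, first around a pair of CCAAT boxes (chr1:47314268-47314297) and then around the E2F site (chr1:47314140-47314169), with the matches in capitals. A match of letters is a description of the sequence and was not tested as a binding site.
STIL, CCAAT boxes: tgcggggcgctgATTGGtcggcacaCCAAT
STIL, E2F: gcgagcttgtgTTTGCCGCctcagttcccg

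SASS6 (ENSG00000156876.10, chr1:100083570-100132930, minus strand) encodes the cartwheel protein. SASS6 measured 13.6, 14.4, 14.4 and 15.3 CPM in the controls and 15.9, 14.6, 14.4 and 16.4 CPM in the CML libraries. CML libraries 2 and 3 lay among the controls, and CML libraries 1 and 4 were above them. The log2 difference was 0.08 (SE 0.056), and 0.05 without CML library 4. The start region of SASS6 held 1 E2F site, on the strand opposite to the gene and inside the transcript (chr1:100132897-100132926). In all, a CHR was found for 4 of the 9 genes (PLK4, CEP152, CEP192 and CEP135), a CCAAT box for 3 (STIL, CEP152 and CEP192) and an E2F site for 4 (STIL, SASS6, CEP192 and CEP63).
SASS6, E2F: gcagaagccgaGCGCCAAActcaaacttta

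CEP192, CEP152 and CEP63 form the platform on the parent centriole that receives PLK4. CEP192 (ENSG00000101639.18, chr18:12991362-13125036) measured 43.5, 44.4, 49.8 and 48.0 CPM in the controls and 48.9, 48.1, 48.6 and 50.5 CPM in the CML libraries. CEP152 (ENSG00000103995.14, chr15:48729083-48811069) measured 7.16, 8.28, 7.50 and 7.92 CPM in the controls and 7.24, 8.77, 7.98 and 9.33 CPM in the CML libraries. CEP63 (ENSG00000182923.17, chr3:134485724-134782559), the partner of CEP152, measured 19.98, 24.2, 22.1 and 23.7 CPM in the controls and 22.7, 22.0, 22.5 and 24.8 CPM in the CML libraries. The groups overlapped for all 3 genes, with log2 differences of 0.08 (SE 0.045) for CEP192 (0.05 without control library 1), 0.10 (SE 0.084) for CEP152 (0.06 without both libraries numbered 4, 0.04 without CML library 4 and 0.15 without CML library 1) and 0.03 (SE 0.067) for CEP63. For CEP63 the sign turned when control library 1 (-0.02) or CML library 4 (-0.0023) was left out. The highest value with 1 library left out was 0.07, without control library 2. CEP63 also overlaps ANAPC13 on the opposite strand, which measured 42.6 CPM on average, and reads of the overlap could not be assigned here, since the counting is not stated to use strand.

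CEP135 joins the cartwheel to the microtubules of the centriole wall. CEP135 (ENSG00000174799.10, chr4:55948945-56033361) measured 29.0, 29.4, 30.7 and 35.2 CPM in the controls and 31.2, 31.7, 29.9 and 37.5 CPM in the CML libraries. Library 4 was the highest in both groups, by 0.24 and 0.27 on the log2 scale over the other libraries of its group, and the spread within the groups (9.73%) exceeded that of counting (4.3%). The difference between the groups, 0.06 (SE 0.087), was smaller than the distance of either library 4 from its group, and without CML library 4 its sign turned (-0.0038), while without control library 4 it was 0.12.

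CENPJ, CEP120 and SPICE1 act in the growth of the new centriole. CENPJ (ENSG00000151849.15, chr13:24882279-24934000), whose product CPAP controls centriole length, measured 7.87, 8.63, 8.65 and 7.01 CPM in the controls and 7.64, 9.36, 8.96 and 9.83 CPM in the CML libraries. Library 4 was the lowest control and the highest CML library, and the log2 difference of 0.14 (SE 0.094) dropped to 0.04 without both. CEP120 (ENSG00000168944.15, chr5:123344892-123423842), a partner of CPAP, measured 59.2, 55.5, 54.9 and 61.5 CPM in the controls and 57.8, 57.1, 56.6 and 57.6 CPM in the CML libraries. The CML libraries all lay between the control values, and the log2 difference was -0.01 (SE 0.037), the only one of the 10 below 0. It turned positive without control library 1 (0.0014), without control library 4 (0.02) and without both libraries numbered 4 (0.02). SPICE1 (ENSG00000163611.11, chr3:113442718-113515156) measured 5.14, 5.67, 5.57 and 6.10 CPM in the controls and 5.37, 4.67, 7.01 and 6.32 CPM in the CML libraries, where the lowest and the highest of all 8 values fell. Its log2 difference was 0.04 (SE 0.116), with -0.04 without CML library 3 and 0.12 without CML library 2. A protein-coding gene annotated on the same strand, ENSG00000285943, overlaps SPICE1, whose values were whole reads in 1 of the 8 libraries, so its level is uncertain.

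**Figure D1:**
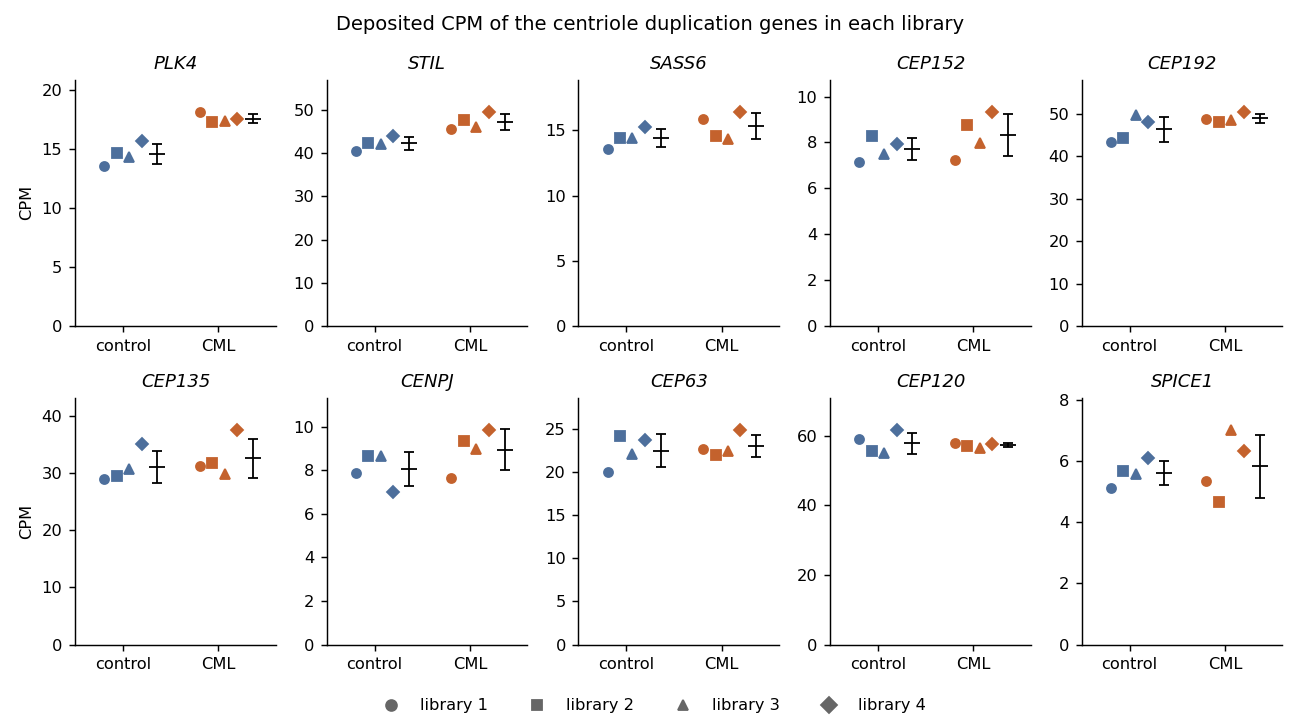
Deposited CPM (vertical axes, from 0) of the 10 genes in the 4 control (blue) and 4 CML (orange) libraries, with the library number as the symbol and the mean ± SD in black. PLK4 and STIL are the genes whose CML libraries all lie above the controls, and CEP135 is highest in library 4 of both groups.

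Across the 10 genes, 9 had a higher mean in CML and 1 a lower one, with a median log2 difference of 0.08, or 0.08 without PLK4 as well. With 1 library left out the median lay between 0.05 and 0.11, lowest without CML library 4, where 7 genes had a higher mean. Over the 10769 genes that averaged 5 CPM or more, 61.2% had a higher mean in CML and the median was 0.02. In the limma fit, 0.895% of all genes had an adjusted p under 0.3 in either direction (158 of 17649). Among the genes averaging 5 CPM or more, 0.938% passed as higher and 0.204% as lower. All 4 CML libraries stood above all 4 controls in 3.36% of them and below in 1.25%, and for the 10 genes these counts were 2 and 0. The genes were chosen with this contrast known, so nothing is read from these counts. At an adjusted p of 0.05 limma called 0 genes, and 1352 had an unadjusted p under 0.05 (7.66%). With a floor of 1 CPM on the mean it called 36 genes at 0.05, and with the dependence on GC content and length removed 137. The p-values here measure the spread between libraries, which may be technical, since no source says that the cultures were grown independently.

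**Figure D2:**
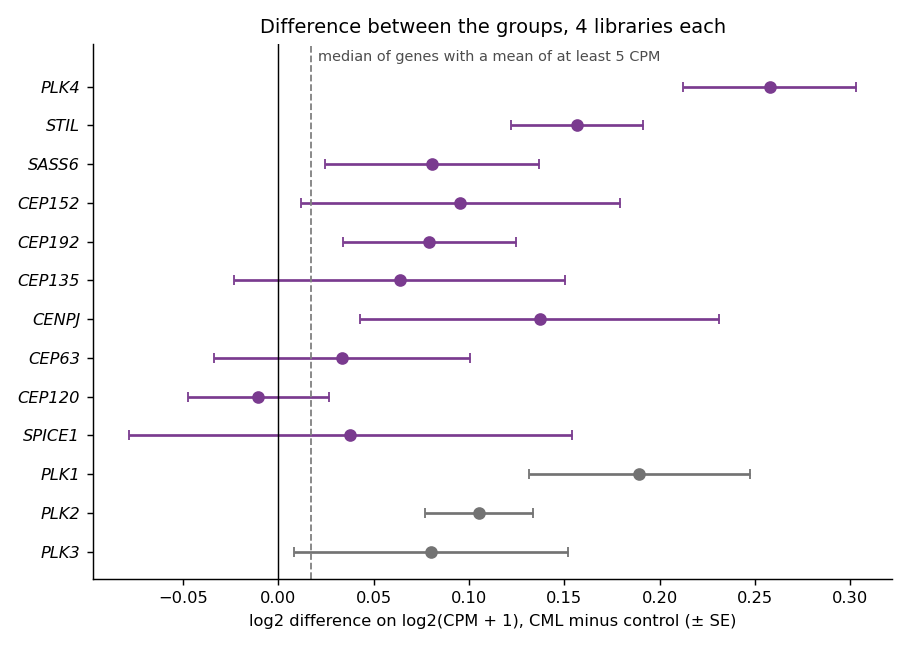
Log2 difference between CML and control on log2(CPM + 1) (horizontal axis, ± SE, n = 4 per group) for the 10 centriole duplication genes (purple) and PLK1, PLK2 and PLK3 (gray). The dashed line marks the median of genes averaging 5 CPM or more (0.02), and PLK4 lies farthest to the right at 0.26.

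Per kilobase of merged exons, the levels of the 10 genes in control cells spanned from 0.707 to 5.41 CPM per kb. STIL was the most abundant (5.41 ± 0.187 CPM per kb, SD, n = 4), followed by CEP192 (4.69) and CEP120 (4.43), whose libraries overlapped. SASS6 (3.63), PLK4 (3.26) and CEP135 (2.82) came next, and each overlapped its neighbour in that order. CENPJ (1.38), CEP152 (0.945), CEP63 (0.926) and SPICE1 (0.707) were the least abundant, and CEP152 and CEP63 overlapped. In CML cells PLK4 stood at 3.93 and SASS6 at 3.86 CPM per kb, and their libraries overlapped as in the controls. The order depends on the length used. Per kilobase of the longest transcript, CEP120 came first (8.95 CPM per kb), PLK4 (3.80) stood above SASS6 (3.63) in control cells, and CEP63 stood at 2.62, because its merged exons span 24.3 kb and its longest transcript 8.58 kb.

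**Figure D3:**
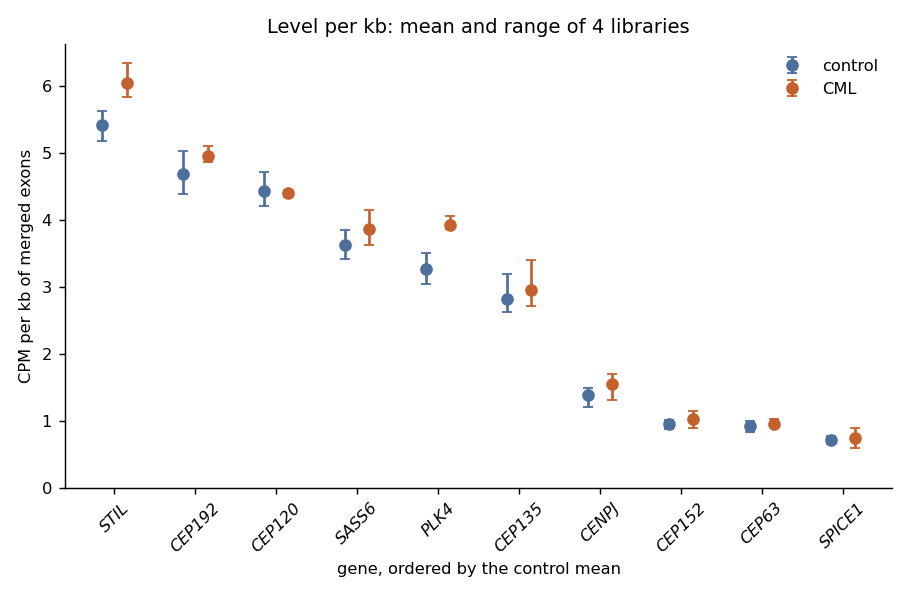
Level in CPM per kb of merged exons (vertical axis, from 0) of the 10 genes, ordered by the control mean, with the mean as a point and the lowest and highest of 4 libraries as bars. STIL leads in both groups, and the CML range of PLK4 lies wholly above its control range.

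The balance of PLK4 against its partners was described with ratios within a library, which the scaling between libraries does not change. Of the summed level per kb of the 10 genes, PLK4 held 11.3%, 11.8%, 11.3% and 11.8% in the controls and 13.6%, 12.9%, 13.1% and 12.3% in the CML libraries. Every CML library was above every control, with CML library 4 the nearest to the controls. The ratio of PLK4 to SASS6 in CPM was 1.00, 1.02, 0.996 and 1.03 in the controls and 1.14, 1.19, 1.21 and 1.07 in the CML libraries, again without overlap. PLK4 over CEP192, CEP63 and CEP120 also gave higher ratios in all CML libraries. The ratio of PLK4 to STIL was 0.336 to 0.356 in the controls and 0.354 to 0.398 in the CML libraries, and overlapped through CML library 4. The ratios to CEP152, CEP135, CENPJ and SPICE1 overlapped as well. PLK4 was chosen with its own difference known, and each ratio carries that difference, so nothing is read from the ratios that did not overlap. Ratios of other genes were not compared.

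Within the groups, the 10 genes varied together to a limited degree. Over the 8 deviations from the group means, which share the libraries and their depth, 38 of the 45 gene pairs had a Pearson correlation above 0, with a median of 0.33, and 17 were above 0.5. The highest were STIL with CEP135 (0.89) and STIL with CEP152 (0.84). PLK4 went most closely with SASS6 (0.71) and CEP63 (0.70), and least with CENPJ (-0.54). Control library 1 and the libraries numbered 4 carried much of the color in the map of deviations. For every gene but CEP120 (0.04), control library 1 was below its group mean, most for CEP63 (-0.16). Over 9 of the 10 genes control library 4 was above its group mean, CENPJ being the exception, and CML library 4 was above its group mean for 9, PLK4 being the exception. Over 3095 genes with a GC content under 42%, library 4 was also higher, by 0.11 (log2) in controls and 0.07 in CML cells. Pairs of other genes were not compared.

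**Figure D4:**
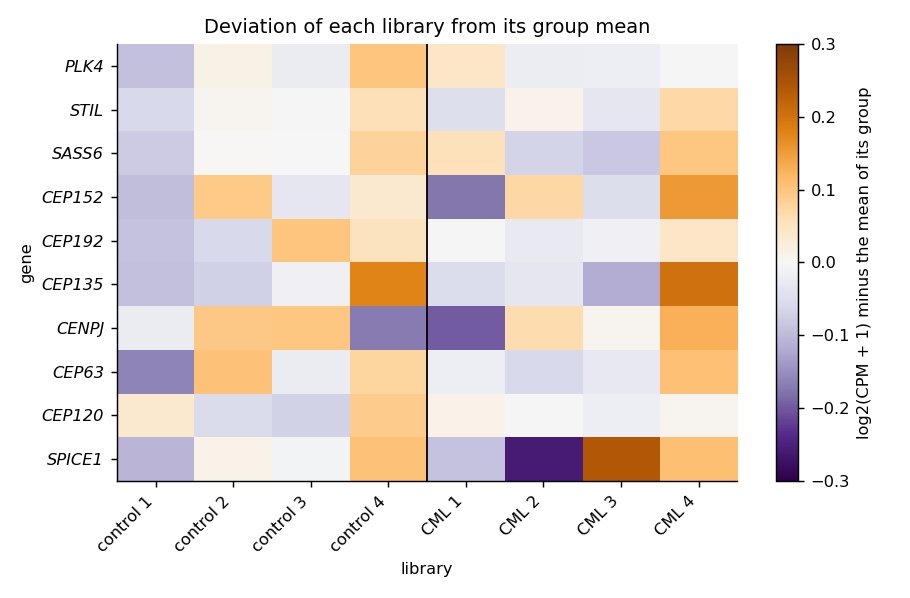
Log2(CPM + 1) of each gene (rows) in each library (columns) minus the mean of its group, from purple (lower) to orange (higher). Columns control 4 and CML 4 are mostly orange, most strongly for CEP135, and column control 1 is mostly purple. SPICE1 differs most between CML libraries 2 and 3.

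The genes most like PLK4 over the 8 libraries were sought among 10768 other genes averaging 5 CPM or more. By Pearson correlation over the 8 log2 values, which contain the difference between the groups, these were TYMS (0.993), the enzyme that makes thymidylate for DNA synthesis, CKS1B (0.985), a partner of cyclin-dependent kinases, TCF12 (0.978), a transcription factor, CKAP2 (0.975), a spindle protein, and SGK1 (0.974), a kinase. STIL ranked 84th (0.905) and SASS6 848th (0.707). Over the deviations from the group means, the 5 most like PLK4 were FAM13B (0.986), PA2G4 (0.981), N4BP2L2 (0.977), GDE1 (0.977) and METTL2B (0.973), none of them on the first list. Their log2 differences between the groups lay between -0.02 and 0.03. Each correlation rests on 8 libraries.

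Among the other polo-like kinases, PLK1, which drives mitotic entry and spindle assembly, measured 24.9, 25.0, 25.2 and 25.1 CPM in the controls and 29.6, 29.2, 31.0 and 25.3 CPM in the CML libraries. The groups did not overlap, but CML library 4 was close to the controls, and the log2 difference of 0.19 did not pass (limma, adjusted p = 0.478). Without both libraries numbered 4 it was 0.25 and passed at 0.3 (adjusted p = 0.17). PLK2, a stress-responsive relative also placed at centrioles, measured 137, 136, 130 and 139 CPM in the controls and 144, 144, 143 and 152 CPM in the CML libraries. Its groups did not overlap, at a log2 difference of 0.11 (adjusted p = 0.399). PLK3 overlapped between the groups (0.08, adjusted p = 0.897, and 0.03 without both libraries numbered 4), so that 0 of these 3 kinases passed and 2 had an unadjusted p under 0.05, as 7.66% of all genes did. With the dependence on GC content and length removed, PLK1 (adjusted p = 0.118) and PLK2 (adjusted p = 0.122) passed. In that setting 5.72% of all genes did. PLK1 also passed without CML library 4 (limma adjusted p = 0.159). PLK2 passed without control library 4 (0.261), where 3.91% of all genes did, and with a replicate block (0.289). PLK5 was not in the table. PLK1 held a CHR and a CCAAT box before its listed start, where all 250 bases lie in a PLK1 transcript of the GENCODE annotation, though outside the RefSeq gene. The CHR is in capitals here (chr16:23678848-23678877, plus strand).
PLK1, CHR: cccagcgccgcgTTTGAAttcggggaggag

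The other genes of the centrosome were taken from 7 lists, the polo-like kinases among them, with 105 genes in the table beside the 10. Of these, 79 had a higher mean in CML, 2 passed limma at an adjusted p of 0.3, both higher, and the median log2 difference was 0.05. All 105 averaged 1 CPM or more. Over the 13047 genes that did, 58.8% had a higher mean, 1.02% passed in either direction and the median was 0.015. Both that passed, CCNB1 and CCNF, belong to the 18 regulators of duplication. CCNB1, the cyclin that activates CDK1 at mitotic entry, measured 66.4, 65.6, 66.5 and 71.8 CPM in the controls and 78.8, 83.3, 81.4 and 84.4 CPM in the CML libraries, without overlap (log2 difference 0.28, SE 0.035, adjusted p = 0.0889). CCNF, the F-box protein that marks the centriole protein CP110 for degradation, measured 11.3, 10.9, 12.5 and 11.6 CPM in the controls and 15.1, 14.8, 14.1 and 13.9 CPM in the CML libraries (0.30, SE 0.049, adjusted p = 0.173). CCNF passed in 10 of 17 alternatives. It did not pass with libraries centred on their median (limma adjusted p = 0.324) or with a replicate block (0.356). Leaving out 1 library moved the count of 2 to 0 without CML library 2, to 1 without control library 1 or 2 or CML library 1 or 3, to 3 without CML library 4 and to 9 without control library 4. It was 5 without both libraries numbered 4. The share of all genes called, 0.895% with all libraries, was 0.113% without CML library 2, 3.91% without control library 4 and 1.82% without both libraries numbered 4.

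None of the 25 genes of centriole elongation and the wall passed limma at 0.3, and 6 had an unadjusted p under 0.05, as 7.66% of all genes did. The smallest p-values were those of CEP97 (log2 difference 0.24, adjusted p = 0.305), the partner of CP110 that caps growing centrioles, and POC1A (0.22, adjusted p = 0.4), a wall protein, and for both the CML libraries stood above the controls. None of the 16 appendage genes passed, and 3 had an unadjusted p under 0.05, SCLT1 (0.16, adjusted p = 0.533) and CEP170 (0.11, adjusted p = 0.574) among them. Of the 21 genes of the pericentriolar material and linker none passed, 4 had an unadjusted p under 0.05, and the nearest went in opposite directions, CEP72 (0.32, adjusted p = 0.426) higher and CEP68 (-0.32, adjusted p = 0.479), a linker protein, lower. None of the 8 augmin subunits, which start microtubules inside the spindle, and none of the 14 genes of centriolar satellites passed, and 0 in both lists had an unadjusted p under 0.05. The nearest were HAUS8 (0.16, adjusted p = 0.825), HAUS2 (0.04, adjusted p = 0.884), BBS4 (-0.21, adjusted p = 0.722) and MIB1 (0.09, adjusted p = 0.76), the ubiquitin ligase of the satellites. With the dependence on GC content and length removed, a setting in which 5.72% of all genes passed, CEP97, POC1A, CEP170, CEP72 and CEP68 passed (adjusted p of 0.0577 to 0.194). CEP97, POC1A and CEP170 also passed without control library 4 (adjusted p of 0.251 to 0.29), where 3.91% of all genes did. Without a trend of variance on mean level CEP97 passed too (limma adjusted p = 0.284), as 0.929% of all genes did. MIB1 passed without both libraries numbered 4 (0.11, adjusted p = 0.203), where 1.82% of all genes did. It also passed without control library 4 (0.13, adjusted p = 0.26).

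Markers of dividing cells were compared in the same fit. Of 49 markers of G2 and M phase, 16 passed limma at an adjusted p of 0.3, all 16 higher in CML, 27 had all CML libraries above all controls, and the median log2 difference was 0.21. Over the genes averaging 5 CPM or more these shares were 0.938% and 3.36%. Examples are NDC80 of the kinetochore (0.35, adjusted p = 0.0802), UBE2C, which works with the anaphase-promoting complex (0.27, adjusted p = 0.0856), and MKI67, the Ki-67 antigen gene (0.30, adjusted p = 0.0856). The 49 genes summed to 2891, 3001, 2989 and 3092 CPM in the controls and 3354, 3411, 3347 and 3431 CPM in the CML libraries, TUBB4B was the most abundant (229 CPM) and none was at 0. The count of 16 was 30 without control library 4, 4 without CML library 2 and between 5 and 9 without any other single library, and 20 without both libraries numbered 4. It was 34 with the dependence on GC content and length removed from each library and 9 with libraries centred on their median. The share of all genes called was 5.72% and 0.414% in these 2 settings. It was 3.91% without control library 4, 0.113% without CML library 2 and 1.82% without both libraries numbered 4. Without any other single library it lay between 0.249% and 0.595%. Of 34 S phase markers, 1 passed limma at 0.3, RRM2 of deoxynucleotide synthesis (0.39, adjusted p = 0.278), higher in CML, and the median was 0.09. Of the 34, 31 had a higher mean in CML, as did 58.8% of genes averaging 1 CPM or more. An unadjusted p under 0.05 was found for 8 of the 34 and for 7.66% of all genes. RRM2 did not pass in 10 of 17 alternatives, and the count was 4 without control library 4 and 5 with the dependence on GC content and length removed. Their sum was 787 to 857 CPM in the controls and 874 to 899 CPM in the CML libraries.

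The levels were also set against these sums. Per 1000 CPM of the G2 and M phase markers, PLK4 measured 4.70, 4.91, 4.80 and 5.07 CPM in the controls and 5.42, 5.08, 5.19 and 5.11 CPM in the CML libraries. The groups did not overlap, but the lowest CML library and the highest control library differed by less than the spread within either group. STIL overlapped on this measure, at 14.0 to 14.2 CPM in the controls and 13.6 to 14.5 CPM in the CML libraries. Relative to these markers CEP120 was lower in all CML libraries, at 18.4 to 20.5 CPM in the controls and 16.8 to 17.2 CPM in the CML libraries. CEP192 was at 14.8 to 16.7 CPM in the controls and 14.1 to 14.7 CPM in the CML libraries, a gap smaller than the spread within either group. Per 1000 CPM of the S phase markers, the CML libraries stood above the controls for PLK4 (17.3 to 18.3 against 19.5 to 20.8 CPM) and for STIL (50.5 to 51.8 against 52.2 to 55.1 CPM), and the other 8 genes overlapped. In whole cultures, a larger share of cells in a phase of the cycle and more RNA per cell cannot be told apart, and the part of either in the PLK4 and STIL differences was not tested.

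**Figure D5:**
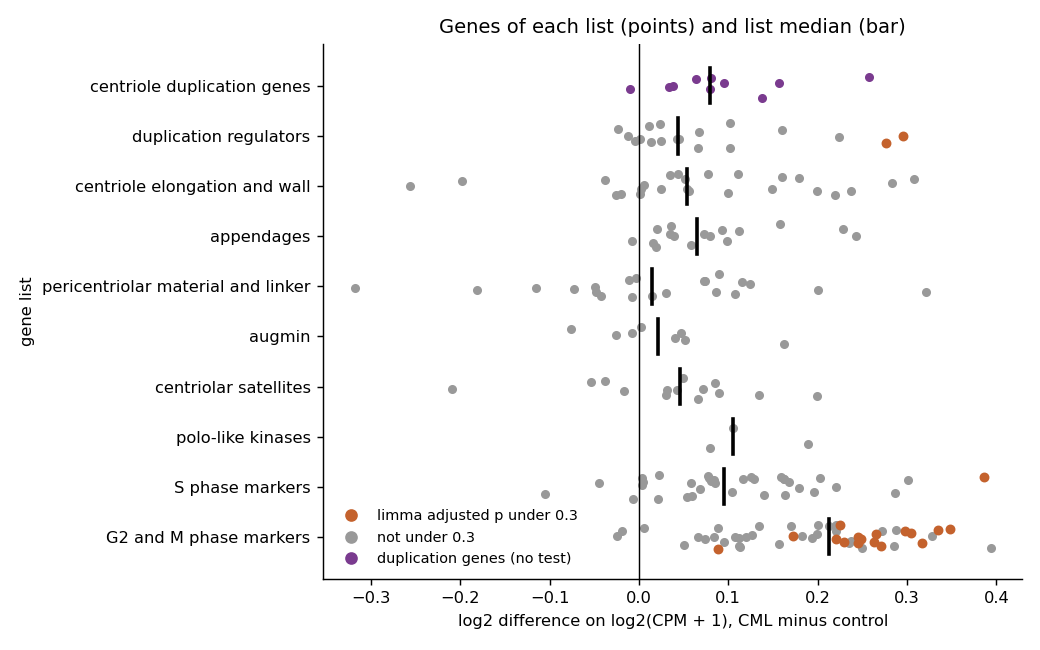
Log2 difference between CML and control on log2(CPM + 1) (horizontal axis) of each gene (points) in 10 gene lists (rows), with the list median as a black bar. Orange marks an adjusted p under 0.3 by limma, purple the 10 duplication genes, which carry no test. The G2 and M phase markers lie farthest right (median 0.21), and the medians of the other centrosome lists lie between 0.01 and 0.11.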

How the data were processed

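The authors deposited normalized CPM values, 1 column per library, for 17681 rows of Ensembl identifiers and symbols. The submitters' processing notes name hg38 and edgeR. The study's methods describe Tophat, hg19 and Ensembl annotation for RNA-Seq of the tumors, and do not say that this covers the CML libraries, for which the aligner, counting tool and annotation are not given in the sources used here. All 8 columns were used. Rows with the same symbol (32 symbols) were averaged, leaving 17649 genes. Groups and numbers came from the sample titles. The value of 1 read was estimated at 0.0535 to 0.0622 CPM, and 84.5% to 85.5% of the values were whole reads within a tolerance of 0.02 reads, so no count test was run. CML and control were compared on log2(CPM + 1) with limma 3.58.1 in R 4.3.3, 2-sided, with a trend of variance on mean level. P-values were adjusted across the whole table by the Benjamini-Hochberg method, with thresholds of 0.3, the FDR the study used, and 0.05. The procedure was tested on simulated data. Exon lengths and GC content came from GENCODE annotation of another build, GRCh37. Positions and start regions came from RefSeq for GRCh38, with CENPJ listed there as CPAP.

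The 10 genes and all lists were chosen with earlier results of these data known. The text names the 10 genes and the polo-like kinases. From each other list it names genes that passed, or the pair with the smallest p among genes averaging 1 CPM or more, at most 3 for the S and the G2 and M phase lists. It also names the 5 genes most like PLK4 by each measure. Marker genes, ANAPC13, ENSG00000285943 and TUBB4B stand outside this rule. Alternatives tried were 0.1 as the pseudocount, a floor of 1 CPM on the mean, unmerged rows, 2 other scalings, no variance trend, a replicate block, removal of GC content and length effects, and left-out libraries. Figures were drawn with matplotlib 3.10.9.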

Additional observations from a re-analysis of the deposited data

Results flagged for a closer look

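In 4 of 60 groups of 4 values examined, 1 library lay farther from the other 3 than Dixon's 95% limit allows, where chance gives about 3. Control library 4 was the library in 3 of them. CCNB1 measured 71.8 CPM there against 65.6 to 66.5 CPM in the other controls. MIB1 measured 124 CPM against 108 to 111 CPM. Its estimated number of reads was 17729495 against 16559881 to 16690386. In the CML libraries, PLK2 measured 152 CPM in library 4 against 143 to 144 CPM in the others. No value of PLK4 or of the 9 genes described with it was among the 4. The cause was not tested.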

How the results depend on the processing

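Over 17 alternatives the log2 difference of PLK4 lay between 0.23 and 0.29, the median of the 10 genes between 0.05 and 0.11, and the number of them with a higher mean in CML between 7 and 10. Leaving out 1 library gave 0.23 to 0.29, 0.05 to 0.11 and 7 to 10 for the same 3 values. CCNB1 had an adjusted p under 0.3 in 16 of the 17, CCNF in 10, and NDC80, UBE2C and MKI67 in all 17. The count of 158 genes under an adjusted p of 0.3 was less stable. It was 73 with libraries centred on their median, 742 with GC content and length removed and 321 without both libraries numbered 4, and leaving out 1 library gave 20 (without CML library 2) to 690 (without control library 4). The count of centrosome genes was 1, 12 and 5 under the same 3 settings, and 0 to 9 with 1 library left out. The cause was not tested. At an adjusted p of 0.05, 0 genes passed, and at least 1 passed in 9 of the 17 alternatives, 137 at most. The higher calls were 75.3% of all calls, 63.0% after centring, 62.5% after quantile normalization and 65.5% with GC content and length removed. Centring moved no library by more than 0.0214 on the log2 scale.

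With a replicate block, 189 genes and 3 centrosome genes passed. Under the block CCNF (limma adjusted p = 0.356) and RRM2 (0.385) were no longer under 0.3, and PLK2 (0.289) was. Same-numbered libraries share only a number, and their deviations correlated at 0.199, -0.0303, -0.0645 and 0.334 for numbers 1 to 4, against a mean of -0.0362 for different numbers, with 4 of 8 libraries closest to their own number. The count test was not run, since too few values were whole reads. Depth limits the least abundant genes, SPICE1 resting on 86 to 115 estimated reads and CENPJ on 123 to 175.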
